A study of Mus musculus with 24 samples.

Results

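The Serpina3 cluster is a run of serine protease inhibitor genes on mouse chromosome 12. The genes described here are Serpina3c, Serpina3f, Serpina3g, Serpina3h, Serpina3i, Serpina3k, Serpina3m and Serpina3n, 8 members in all. They were chosen by the position of Serpina3n, which had the smallest p of all rising genes in oligodendrocytes (OLs) on dpi 2 and dpi 10 (dpi, days post-injury). 7 of the 8 have a row among the 21965 genes of the count table, and all 7 passed the filter of at least 10 counts summed over libraries. Serpina3h, which GENCODE M21 lists as a transcribed pseudogene, has no row and was not analysed here. Because the OL rise of Serpina3n selected the cluster, its OL changes are given as a description, with no test. Those changes rest on the naive, dpi 2 and dpi 10 OL libraries, so the values of Serpina3n in these libraries carry no test in any comparison. Tests are given for its total RNA values, for its OL enrichment on dpi 42, and for the other members but Serpina3k. Total RNA came from the same tissue as the OL libraries and includes OL RNA. The total RNA tests of Serpina3n are thus not independent of its choice. The spread of each gene was estimated over all 24 libraries, those the rule used included. The test of its OL enrichment on dpi 42 is therefore not independent of its choice either.

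The mice were OL-Ribotag animals, in which tamoxifen activates a Cre recombinase made in mature OLs and so places an HA tag on the ribosomal protein RPL22 of mature OLs. The naive controls carried the same alleles and the same tamoxifen treatment. Injured mice received a contusion at T9 with the IH impactor at 50 kdyn, at 10 to 12 weeks of age per the labels (the methods of the study state a younger age), and a cord segment spanning the lesion was taken on dpi 2, dpi 10 or dpi 42. Per the methods, naive tissue was collected on the same day as dpi 42 tissue, so naive mice were older and longer after tamoxifen than those of dpi 2 and dpi 10, and these differences cannot be told apart from injury there. Injured mice also had anaesthesia, a laminectomy and postoperative saline, gentamicin and buprenorphine. The controls were uninjured and no sham group is described, so at every time these cannot be told apart from the contusion. The 4 groups had 3 pools of 2 female mice apiece. A pool yielded a total RNA library and a library of RNA captured with HA-tagged ribosomes, called OL below, so n = 3 throughout and there were 24 libraries. The Cre line is also active in Schwann cells, so ribosomes of Schwann cells in nerve roots or in the lesion can carry the tag. In such bulk libraries fewer cells of a type and less RNA per cell cannot be told apart.

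Serpins inhibit serine proteases by offering an exposed reactive loop as bait; the protease cleaves it and is trapped in a covalent complex. Rodents carry many copies of the gene that in humans is the single SERPINA3, or alpha-1-antichymotrypsin, an acute phase protein of the liver, and the copies differ mostly in the reactive loop and so in the proteases they can inhibit. Serpina3n is a secreted inhibitor known to act on granzyme B, leukocyte elastase and cathepsin G, and it is widely used as a marker of reactive astrocytes and of OLs in disease.

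Total RNA libraries held 25840127 to 29050061 counts and OL libraries 29075211 to 32987841, so that 3 counts equalled 0.103 to 0.116 and 0.0909 to 0.103 CPM, the count scaled to library size (here before TMM scaling). Mog, a defining protein of OL myelin, had 1160 to 1830 CPM in OL libraries against 180 to 303 in total RNA. Both libraries of dpi 2 pool 2 carried 2414 and 2604 counts of 4 Y-linked genes, against at most 13 in the other 22 libraries, which goes against the labelled sex. The dpi 2 tests of the members and the counts of the gene lists were therefore also made without that pool, and are given where they differ. For 2 dpi 42 libraries the labels name both kinds of RNA; the description, which the column names follow, was used.

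The 8 members lie within 268 kb, at chr12:104146382-104414329 of GRCm38. Serpina3n (ENSMUSG00000021091) is the last, at chr12:104406729-104414329 on the plus strand, and Serpina3c (ENSMUSG00000066361) is the first, at chr12:104146382-104153870. Serpina3c is on the minus strand and the other 7 are on the plus strand. Serpina3f spans chr12:104214544-104221129, Serpina3g chr12:104236245-104241939 and Serpina3i chr12:104263122-104269372. The model of Serpina3m (chr12:104338486-104394257) begins at the same base as that of Serpina3k (chr12:104338486-104346144), so the gene models overlap.

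RefSeq promoter windows (GRCm38.p6, 250 bases before to 50 after the start of the gene) were found for 5 of the 8 members, and they are shown because members that rose after injury and members that did not carry the same kind of STAT-type sequence. STAT proteins are the transcription factors that cytokine receptors activate in the acute phase response. Capitals mark every match to TTCNNNGAA or TTNCNNGAA on either strand, and a match to both patterns at one place is capitalised once. These windows lie at chr12:104406458-104406757 (plus strand) for Serpina3n, chr12:104153823-104154122 (minus strand) for Serpina3c, chr12:104262872-104263171 (plus strand) for Serpina3i, chr12:104214294-104214593 (plus strand) for Serpina3f and chr12:104235897-104236196 (plus strand) for Serpina3g.
Serpina3n: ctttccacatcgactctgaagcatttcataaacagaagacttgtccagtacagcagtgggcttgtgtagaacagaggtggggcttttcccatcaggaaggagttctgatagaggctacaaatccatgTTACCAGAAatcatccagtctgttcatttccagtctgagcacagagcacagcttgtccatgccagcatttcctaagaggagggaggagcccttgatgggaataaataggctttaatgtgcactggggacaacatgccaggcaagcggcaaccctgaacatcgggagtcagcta
Serpina3c: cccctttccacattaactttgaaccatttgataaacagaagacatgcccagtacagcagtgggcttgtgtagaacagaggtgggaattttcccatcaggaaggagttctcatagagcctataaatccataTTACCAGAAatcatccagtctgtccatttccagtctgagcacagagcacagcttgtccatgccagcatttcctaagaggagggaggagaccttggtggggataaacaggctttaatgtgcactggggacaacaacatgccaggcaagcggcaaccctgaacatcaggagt
Serpina3i: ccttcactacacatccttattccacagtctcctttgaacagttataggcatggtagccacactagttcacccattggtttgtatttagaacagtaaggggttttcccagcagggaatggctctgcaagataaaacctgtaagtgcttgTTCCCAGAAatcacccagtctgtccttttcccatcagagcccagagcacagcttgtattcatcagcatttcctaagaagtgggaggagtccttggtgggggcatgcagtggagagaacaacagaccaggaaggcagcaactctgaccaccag
Serpina3f: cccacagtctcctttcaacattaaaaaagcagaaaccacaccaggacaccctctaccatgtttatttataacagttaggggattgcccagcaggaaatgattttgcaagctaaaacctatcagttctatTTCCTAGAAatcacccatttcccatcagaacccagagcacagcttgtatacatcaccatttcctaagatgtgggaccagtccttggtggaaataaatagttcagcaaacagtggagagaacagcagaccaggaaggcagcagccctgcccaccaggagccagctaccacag
Serpina3g: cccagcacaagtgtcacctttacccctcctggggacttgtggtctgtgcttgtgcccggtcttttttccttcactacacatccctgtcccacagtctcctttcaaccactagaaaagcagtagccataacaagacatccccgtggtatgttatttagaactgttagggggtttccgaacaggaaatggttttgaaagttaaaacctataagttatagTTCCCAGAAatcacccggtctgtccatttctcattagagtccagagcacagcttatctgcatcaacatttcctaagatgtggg

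All 5 windows held TTNCNNGAA, which was present in 13% of 32851 promoter windows of the same length. The stricter TTCNNNGAA was present in 3 of the 5 windows, those of Serpina3f, Serpina3g and Serpina3i, and in 8.30% of all windows. A C/EBP-type pattern, TTNNGCAA, was found in 1 of the 5 windows, that of Serpina3f, and in 10.8% of all windows. The first base of the STAT-type match stood 123 bases before the start of Serpina3n, 120 before Serpina3c, 102 before Serpina3i, 121 before Serpina3f and 33 before Serpina3g. These distances count from the RefSeq starts. The Serpina3g window ends at 104236196, before the gene start at 104236245 given above. Its distance thus depends on the start used and is not to be set beside the others. The windows of Serpina3n and Serpina3c were identical at 275 of 294 aligned bases (93.5%), whereas those of Serpina3f, Serpina3g and Serpina3i matched Serpina3n at 68.3%, 69.6% and 72.1% of aligned bases. For Serpina3g 207 bases were aligned. The patterns were chosen after the windows had been read. A match is a description of the letters and says nothing of binding.

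Serpina3n rose in total spinal cord RNA at all 3 times after injury. Total RNA held 62.2, 54.5 and 52.0 CPM in naive pools 1 to 3, 1875, 2183 and 1731 CPM on dpi 2, 660, 674 and 588 CPM on dpi 10, and 416, 628 and 576 CPM on dpi 42. The lowest injured library was above the highest naive one at each time, as it was for 24.7%, 24.5% and 20.2% of all genes on dpi 2, 10 and 42. The group means were 56.2 ± 5.32, 1930 ± 231, 640.5 ± 46.4 and 540.2 ± 110 CPM (SD, n = 3 each). The log2 fold change against naive was 5.10 (SE 0.220, edgeR quasi-likelihood test, Benjamini-Hochberg adjusted p, q = 2.45e-12) on dpi 2, and no other gene of the 17167 tested had a smaller p there. It was 3.51 (SE 0.204, edgeR q = 6.81e-11) on dpi 10 and 3.27 (SE 0.202, edgeR q = 3.03e-10) on dpi 42. Without dpi 2 pool 2 the dpi 2 value was 5.00 (edgeR q = 3.88e-11).

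The rise was largest on dpi 2 and then partly receded. From dpi 2 to dpi 10 total Serpina3n fell by 1.59 on the log2 scale (SE 0.189, edgeR q = 1.65e-05; -1.49 without pool 2, edgeR q = 2.62e-04), with no overlap between the groups. From dpi 10 to dpi 42 the difference was -0.25 (edgeR q = 0.699), the groups overlapped, and dpi 42 pool 1, at 416 CPM, was the lowest of the 6 libraries.

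In the OL translatome, where the rule chose the gene, Serpina3n held 86.4, 47.2 and 44.9 CPM in naive pools, 7634, 7457 and 7615 CPM on dpi 2, 3239, 3022 and 2762 CPM on dpi 10, and 1752, 1817 and 2099 CPM on dpi 42. The 4 groups did not overlap, and the spread on dpi 2 was narrow (7569 ± 97.2 CPM, SD, n = 3). Against naive OL, 18.3%, 15.8% and 17.2% of all genes were likewise higher without overlap on dpi 2, 10 and 42. Naive pool 1 stood above the other 2 naive pools. The step from dpi 2 to dpi 10 was -1.33 on the log2 scale and that from dpi 10 to dpi 42 was -0.67. Just behind Serpina3n in the order of p, the values the rule turned on, came Spp1 (log2 fold change 5.42) on dpi 2 and Lyz2 (8.30) on dpi 10, while on dpi 42 Fxyd7 and Lyz2 preceded it. By size of the fold change alone Serpina3n ranked 112th on dpi 2.

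**Figure D1:**
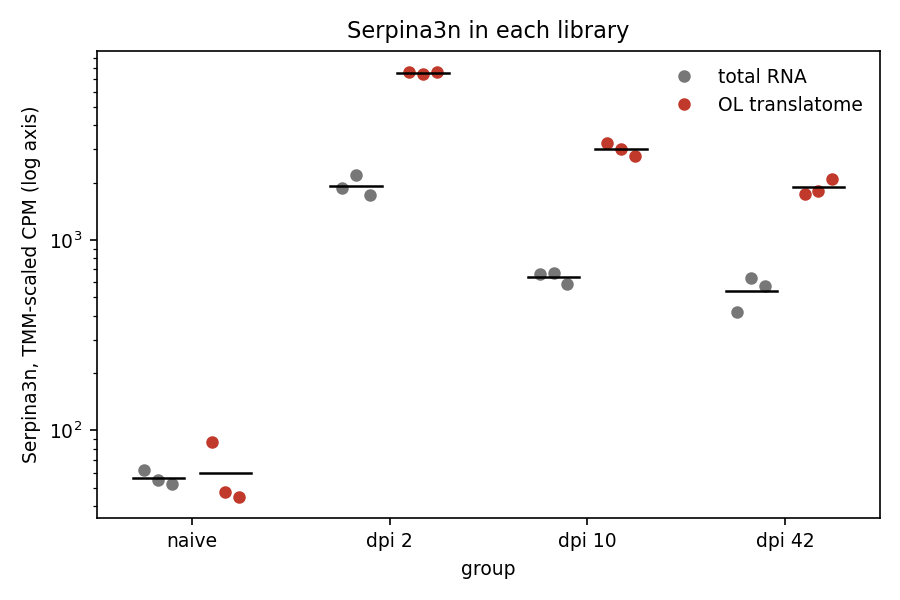
TMM-scaled CPM of Serpina3n (vertical axis, log scale) in each of the 24 libraries by group, grey for total RNA and red for the OL translatome, with a black bar at each mean of 3 libraries. Both kinds of RNA start near 50 to 90 CPM in naive tissue, and on dpi 2 the OL libraries reach 7457 to 7634 CPM and the total RNA libraries 1731 to 2183 CPM.

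By share of counts and by rank Serpina3n became one of the most abundant messages of the libraries. It took 0.00574% to 0.00684% of the counts of a naive total RNA library and 0.222% to 0.280% on dpi 2. In the OL libraries its share went from 0.00350% to 0.00653% in naive tissue to 0.623% to 0.685% on dpi 2, 0.236% to 0.263% on dpi 10 and 0.152% to 0.174% on dpi 42. Ranked by CPM per kilobase of exon among 17154 genes with a known length, it stood at places 4 to 6 in OL libraries on dpi 2, from places 1250 to 2338 in naive ones. In total RNA it stood at places 10 to 12 on dpi 2, from places 1483 to 1808 in naive tissue. On dpi 42 it was still at places 28 to 35 in OL and 75 to 131 in total RNA.

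Serpina3n was OL enriched on dpi 42, and in naive tissue, where it carries no test, OL and total RNA held similar levels. The ratio of OL to total RNA CPM in pools 1 to 3 was 1.39, 0.866 and 0.864 (naive), 4.07, 3.42 and 4.40 (dpi 2), 4.91, 4.49 and 4.70 (dpi 10), and 4.21, 2.89 and 3.64 (dpi 42). The log2 OL enrichment was 1.81 on dpi 42 (SE 0.190, edgeR q = 5.91e-08) and 0.08 in naive tissue. The naive value went to -0.13 without OL naive pool 1 and to -0.44 when only library sizes were used for scaling, a scaling that moved the median of all genes in this comparison by -0.51. With that scaling the dpi 42 value was 1.30. On dpi 2 and dpi 10, which contain libraries the rule used, the log2 enrichment was 1.97 (2.08 without dpi 2 pool 2) and 2.23, and the OL change exceeded the total RNA change by 1.89, 2.15 and 1.72 on the log2 scale on dpi 2, 10 and 42.

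**Figure D2:**
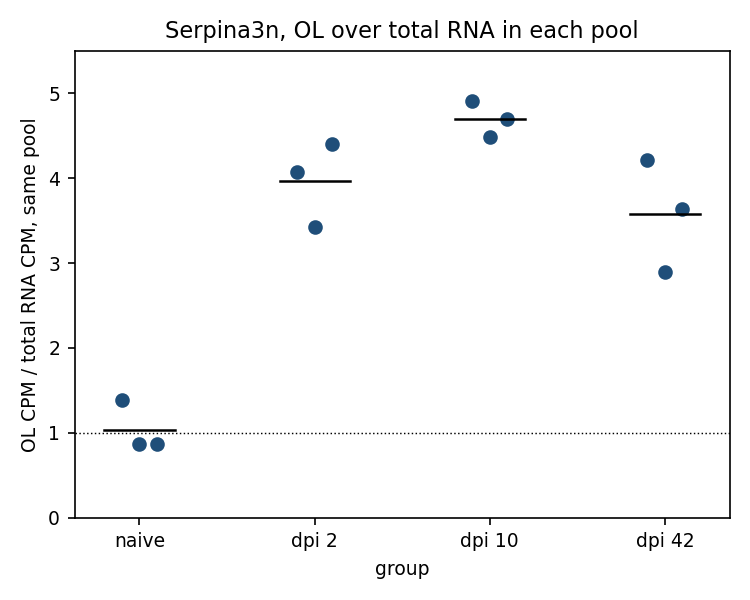
Ratio of OL CPM to total RNA CPM of Serpina3n in each tissue pool (points, 3 per group), with black bars at the group means and a dotted line at a ratio of 1. Naive pools lie between 0.864 and 1.39 and every injured pool lies between 2.89 and 4.91.

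Reactive astrocytes are a known source of Serpina3n, and their markers are given beside its levels. The summed CPM of 8 astrocyte markers (Aldh1l1, Aqp4, Slc1a2, Slc1a3, Gja1, Hgf, Sox9 and Fgfr3) varied widely among OL libraries, from 268 to 6170, against 1780 to 4320 in total RNA, and no marker of the list was at 0 in any group. OL pools 1 to 3 held 844, 862 and 6170 CPM of astrocyte markers in naive tissue, 658, 268 and 2170 on dpi 2, and 2750, 2850 and 546 on dpi 42. On dpi 42 the sums of pools 1 and 2 were close to those of total RNA from the same pools, 3250 and 2900 CPM, while Serpina3n in OL pools 1 to 3 was 1752, 1817 and 2099 CPM. Gfap, the astrocyte filament protein, ranged from 695 to 5740 CPM in OL libraries on dpi 2. In total RNA the astrocyte sum was 3960 to 4320 CPM in naive tissue and 1780 to 2190 CPM on dpi 2. The part of astrocyte RNA in the OL levels of Serpina3n was not tested.

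Markers of other cell types were also measured in the OL libraries. Prx, the periaxin of Schwann cell myelin, had 0.084 to 82.4 CPM in naive OL libraries, 21.2 to 70.9 on dpi 2, 63.3 to 101 on dpi 10 and 86.1 to 108 on dpi 42. The 10 myeloid markers summed to 19.8 to 28.1 CPM in naive OL libraries and 79.6 to 101 on dpi 2, against 1340 to 1590 in total RNA on dpi 2. Neutrophil markers (8 genes) summed to at most 19.8 CPM in any OL library, with Mpo at 0 in 3 of the 4 OL groups. The 8 hepatocyte markers summed to at most 2.72 CPM in OL and 3.11 CPM in total RNA, with Tat at 0 throughout. The part of Schwann cells and myeloid cells in the levels of Serpina3n was not tested.

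**Figure D3:**
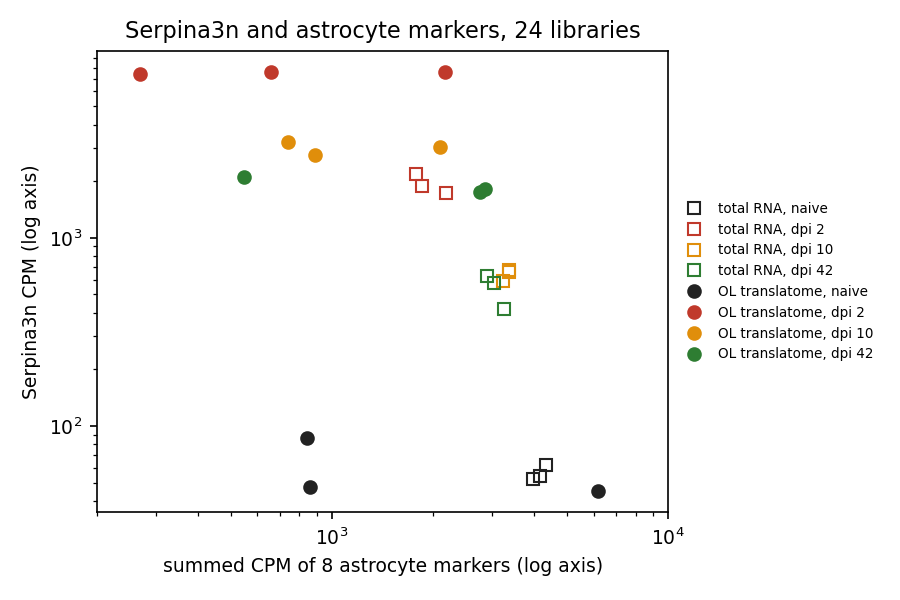
Serpina3n CPM (vertical axis, log scale) against the summed CPM of 8 astrocyte markers (horizontal axis, log scale), 1 point per library, open squares for total RNA and filled circles for OL, coloured by time. The OL libraries hold 268 to 6170 CPM of astrocyte markers and 44.9 to 7634 CPM of Serpina3n.

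The other members were scarce beside Serpina3n, which took 93.5% to 96.0% of the counts of the 7 members in naive total RNA and 98.2% to 99.9% in every other group. Per kilobase of exon its share of the cluster was 93.7% to 99.9%. 3 of the 7 members, Serpina3n, Serpina3i and Serpina3m, were called higher (a log2 change past 1, with q under 0.05) in total RNA on dpi 2, where 10.0% of all genes tested were. With only the groups compared in the fit, 6 members were called, beside 14.3% of all genes in that fit. The 6 include Serpina3k, which passed the filter on low counts only through the dpi 2 group, so its call is no test. Without pool 2 the count was 3, beside 8.69%. On dpi 10 and on dpi 42 the 2 members called were Serpina3n and Serpina3i, against 9.20% and 6.66% of all genes. All 7 lie in 1 region and share sequence, so they are not independent.

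**Figure D4:**
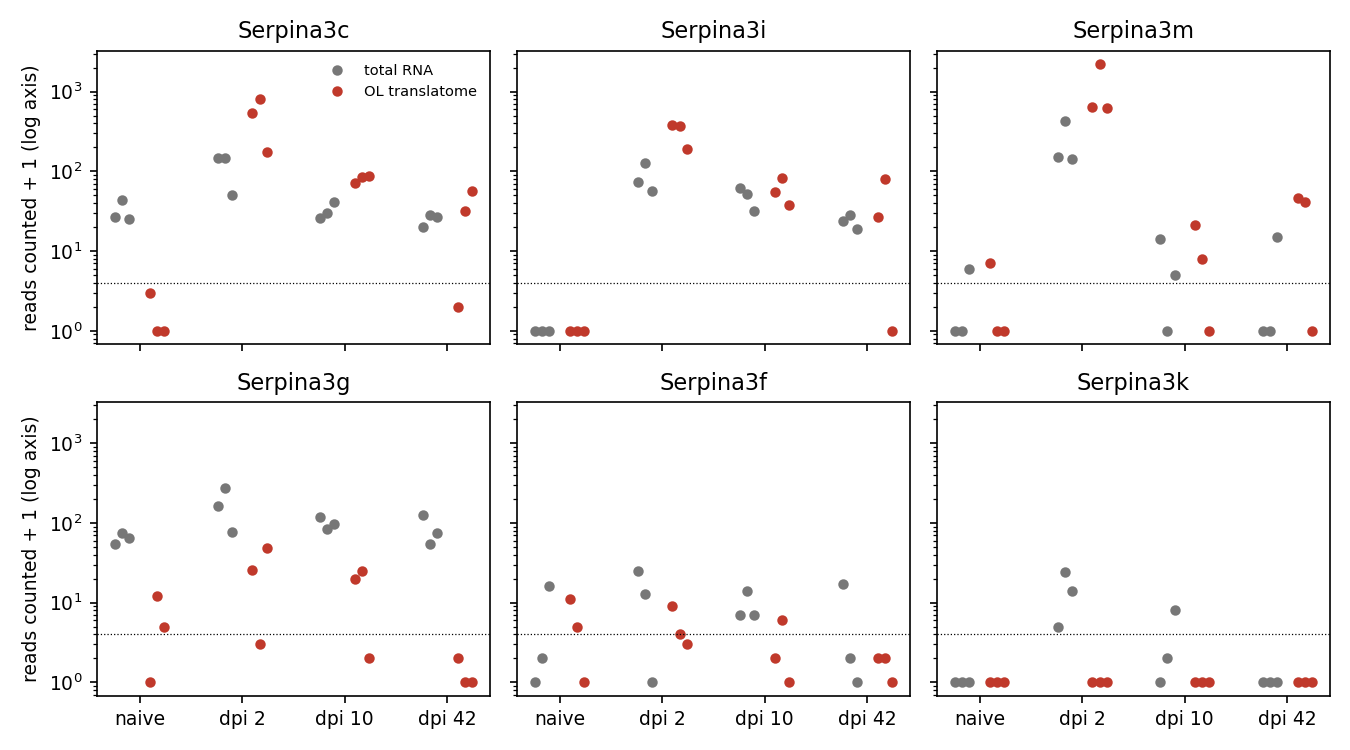
Reads counted plus 1 (vertical axis, log scale) for the 6 scarcer members in each library, grey for total RNA and red for OL, with a dotted line at 3 counts. Serpina3c, Serpina3i and Serpina3m peak on dpi 2 in both kinds of RNA, with the OL points on top, whereas Serpina3g lies lower in OL than in total RNA at all times.

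Serpina3c, the member whose promoter window is nearest in sequence to that of Serpina3n, was present in naive cord but almost absent from naive OLs. Total RNA pools 1 to 3 held 26, 43 and 24 counts (naive), 145, 147 and 49 (dpi 2), 25, 29 and 40 (dpi 10) and 19, 27 and 26 (dpi 42). OL pools 1 to 3 held 2, 0 and 0 counts (naive), 540, 803 and 174 (dpi 2), 70, 85 and 87 (dpi 10) and 1, 31 and 55 (dpi 42). The 3 dpi 2 libraries lay above the naive ones in both kinds of RNA, but pool 3 was far below the other 2. Of all genes, 24.7% in total RNA and 18.3% in OL were likewise higher without overlap. In naive tissue OL was depleted of Serpina3c relative to total RNA, with 2 against 93 counts and a ratio of 0.0272 (95% counting interval 0.00325 to 0.101; edgeR q = 7.27e-04). On dpi 2 OL enrichment was 2.58 (SE 0.739, edgeR q = 0.00566), and 2.29 (edgeR q = 0.0564) without pool 2.

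In total RNA Serpina3c was 1.72 log2 units higher on dpi 2 than in naive tissue, which missed the threshold (SE 0.739, edgeR q = 0.0737) and passed it with 4 of the other settings, DESeq2 among them (q = 0.0376), and in 5 of 24 fits that left out 1 library. Without pool 2 it was 1.47 (edgeR q = 0.203). Its total RNA differences on dpi 10 and dpi 42 were not called, and that on dpi 10 (-0.14) changed sign with the scaling. The OL counts summed to 722 times the naive ones after scaling on dpi 2 (counting interval 200 to 5970), 114 times on dpi 10 (31.1 to 944) and 39.5 times on dpi 42 (10.6 to 332). On dpi 42 the OL groups overlapped, since pool 1 held 1 count. The OL call there was lost with only the groups compared in the fit (edgeR q = 0.0971). The change in OL exceeded that in total RNA by 7.58 log2 units on dpi 2 (edgeR interaction, q = 6.65e-04; 7.28 without pool 2, q = 0.00445), 6.75 on dpi 10 (q = 0.00364) and 5.67 on dpi 42 (q = 0.0144). The last call was lost without OL naive pool 2 (5.03, edgeR q = 0.0547) and with only the groups compared in the fit (edgeR q = 0.083). These folds rest on 2 counts in naive OL. Leaving Serpina3n aside, Serpina3c was the 1 member called so at each time, against 3.35%, 1.48% and 1.56% of all genes.

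Serpina3i was not detected in naive tissue and was present in both kinds of RNA after injury. It had 0 counts in all 6 naive libraries. Total RNA pools 1 to 3 held 72, 126 and 56 counts (dpi 2), 61, 51 and 31 (dpi 10) and 23, 27 and 18 (dpi 42). OL pools 1 to 3 held 379, 370 and 191 counts (dpi 2), 54, 82 and 37 (dpi 10) and 26, 80 and 0 (dpi 42). Against the limit of 3 counts in each naive library, total RNA was at least 25.8-fold higher on dpi 2 (edgeR q = 1.70e-04), at least 14.4-fold on dpi 10 (edgeR q = 5.91e-04) and at least 6.80-fold on dpi 42 (edgeR q = 0.00375). Without pool 2 the dpi 2 bound was 19.2-fold (edgeR q = 9.78e-04). The OL bounds were 99.6-fold (88.2-fold without pool 2), 18-fold and 10.6-fold. On dpi 42 the OL groups overlapped, since pool 3 held 0 counts, and that call was lost with only the groups compared in the fit (edgeR q = 0.0942); the fitted log2 value of 8.27 was 6.77 (edgeR q = 0.00565) without OL dpi 42 pool 2. OL enrichment on dpi 2 was 2.29 (edgeR q = 0.0342), but without pool 2 it was 2.54 (edgeR q = 0.0841). The call was also lost without total RNA pool 1 or 3, or without OL pool 1 or 2, at 2.07 to 2.16 (edgeR q = 0.0841 to 0.105).

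Serpina3m appeared almost only on dpi 2. Total RNA pools 1 to 3 held 0, 0 and 5 counts (naive), 150, 432 and 141 (dpi 2), 13, 0 and 4 (dpi 10) and 0, 0 and 14 (dpi 42). OL pools 1 to 3 held 6, 0 and 0 counts (naive), 636, 2218 and 620 (dpi 2), 20, 7 and 0 (dpi 10) and 46, 40 and 0 (dpi 42). Pool 2, the pool with Y-linked counts, stood above the other 2 dpi 2 pools in both kinds of RNA. In total RNA dpi 2 held 132 times the naive level (counting interval 56.1 to 407), and the log2 fold change was 6.95 (edgeR q = 9.69e-04), or 6.20 (edgeR q = 0.00902) without pool 2. From dpi 2 to dpi 10 total Serpina3m fell by 5.39 log2 units (edgeR q = 0.0121), and the difference was -4.64 (edgeR q = 0.0926) when pool 2 was left out. The call was also lost without total RNA dpi 10 pool 2 (-4.82, edgeR q = 0.069) or pool 3 (-5.19, edgeR q = 0.0666), and with DESeq2 (q = 0.0743). In OL the same step was -7.03 (edgeR q = 6.07e-04), and -6.09 (edgeR q = 0.00883) without pool 2. OL enrichment of Serpina3m on dpi 2 was 2.69 (edgeR q = 0.0372) and was lost with a block by tissue pool (edgeR q = 0.0801), with DESeq2 (q = 0.299), without both libraries of pool 2 (2.50, edgeR q = 0.193), without OL pool 2 (1.70, edgeR q = 0.267), and without total RNA pool 1 or 3 (2.42 each, edgeR q = 0.117 and 0.115).

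The steps from dpi 2 to dpi 10 were called lower for Serpina3m and Serpina3n in total RNA, 2 of 7 members against 0.967% of all genes. In OL, leaving Serpina3n aside, they were called lower for Serpina3c and Serpina3m, 2 of 6 against 3.00% of all genes. The OL value of Serpina3c was -2.68 (edgeR q = 0.0118), and -2.13 (edgeR q = 0.08) without pool 2 and -2.53 (edgeR q = 0.0553) without OL dpi 10 pool 1. In OL against naive, of the 6 members other than Serpina3n, Serpina3c, Serpina3i and Serpina3m were called higher on dpi 2, and Serpina3c and Serpina3i on dpi 10 and dpi 42, beside 10.2%, 6.82% and 8.54% of all genes. Without pool 2 Serpina3g was also called higher on dpi 2 (2.74, edgeR q = 0.0381, against 2.20, edgeR q = 0.1). OL against total RNA on dpi 2 gave Serpina3c, Serpina3i and Serpina3m as enriched, beside 20.5% of all genes, and Serpina3g as depleted, beside 27.2%. These 4 calls were lost without pool 2. On dpi 10 Serpina3n, which carries no test there, was past the thresholds of enrichment, as were 21.2% of all genes, and Serpina3g was depleted, beside 27.3%.

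Serpina3g, an inhibitor that stays inside the cell and is known from blood-forming cells as Spi2A, was lower in OL than in total RNA. Total RNA pools 1 to 3 held 54, 74 and 63 counts (naive), 162, 270 and 76 (dpi 2), 118, 82 and 96 (dpi 10) and 124, 53 and 73 (dpi 42). OL pools 1 to 3 held 0, 11 and 4 counts (naive), 25, 2 and 48 (dpi 2), 19, 24 and 1 (dpi 10) and 1, 0 and 0 (dpi 42). Total RNA was higher than OL in all 12 pools. The log2 OL enrichment was -3.29 in naive tissue (edgeR q = 0.0105), -2.37 on dpi 2 (edgeR q = 0.0414) and -2.34 on dpi 10 (edgeR q = 0.0462), and on dpi 42 OL held 0.00511 times the total RNA level (counting interval 0.000129 to 0.0287; edgeR q = 1.77e-04). The naive call was lost without OL naive pool 1 (-2.57, edgeR q = 0.0517), and the dpi 2 call without pool 2 (-1.29, edgeR q = 0.314). A block by tissue pool, which pairs the OL and total RNA of a pool, also removed the dpi 2 and dpi 10 calls (edgeR q = 0.115 and 0.079). With 1 library left out the dpi 2 call was lost in 10 and the dpi 10 call in 14 of 24 fits, the former at -1.83 (edgeR q = 0.155) without total RNA dpi 2 pool 2 and the latter at -1.76 (edgeR q = 0.143) without OL dpi 10 pool 3, the smallest values in size. The total RNA change on dpi 2 was 1.28 (edgeR q = 0.296; 0.74 without pool 2, edgeR q = 0.582), and those on dpi 10 and 42 were not called either. The 2 members called OL depleted in naive tissue, Serpina3c and Serpina3g, stand against 28.6% of all genes, and on dpi 42 the 1 member depleted, Serpina3g, and the 1 enriched, Serpina3n, stand against 27.0% and 21.1%.

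Serpina3f and Serpina3k stayed near the limit of detection. Serpina3f had at most 24 counts in any library and its smallest q in any comparison was 0.271 by edgeR. Serpina3k, the contrapsin of mouse liver, had 4, 23 and 13 counts in total RNA on dpi 2 and 0, 1 and 7 on dpi 10, and 0 counts in every other library, OL included. On dpi 2 its total RNA level was at least 4.11-fold above the naive limit of 3 counts per library, and at least 2.61-fold without pool 2. It passed the filter on low counts only through that group. Its rise and its low OL level there are therefore a description, with no test. 0 counts in an OL library allow up to 0.0909 to 0.103 CPM before scaling.

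How far reads can be told apart between members was examined on the longest transcript of each gene in GENCODE M21. Over whole transcripts the members matched Serpina3n at 79.3% to 83.9% of aligned bases. Of 2015 windows of 50 bases in Serpina3n, 139 (6.90%) occurred exactly in a transcript of another gene, most often Serpina3e-ps. No 50-base window of Serpina3i or Serpina3k occurred in a Serpina3n transcript, while 25 of 2164 windows of Serpina3c, 51 of 1754 of Serpina3g and 18 of 1610 of Serpina3m did. Serpina3m and Serpina3k shared 257 windows. Against transcripts of any other gene, 332 of 2151 windows of Serpina3i (15.4%) occurred exactly, 198 of them in Serpina3h. For Serpina3g it was 281 of 1754 (16%), for Serpina3m 307 of 1610 (19.1%) and for Serpina3k 282 of 2008 (14%). How the counting treated reads that fit several genes is not given in the sources used here. The values of the scarce members, Serpina3i, Serpina3g, Serpina3m and Serpina3k among them, are therefore uncertain.

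No rise past the threshold was found among the tested genes around the cluster, most of which held few counts. Of the 18 other genes in the table within 500 kb of the outermost members, 8 were tested. In the 6 comparisons with naive tissue 0 were called higher by edgeR, beside 6.66% to 10.2% of all genes. 1 was higher at an unadjusted p under 0.05, in total RNA on dpi 2, and DESeq2 called 0. Of the 8, Serpina1b, Serpina1d, Serpina1e, Serpina11 and Serpina12 held 13 to 47 counts over all libraries, and Serpina9 held 165. So few counts leave little chance of a call. Dicer1 and Clmn held 42862 and 86466 counts. Whether the rise stops at the cluster was therefore not tested. Dicer1, the nuclease that cuts microRNA precursors, differed by -0.14 in total RNA and -0.21 in OL on dpi 2, neither called. Clmn was called lower on dpi 2, by -1.81 in total RNA and -2.40 in OL. Serpina3a, Serpina3b and Serpina3j, copies that are not among the 8 members, had 3, 0 and 1 counts over all libraries.

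Other serpins were compared from a list of 55 genes, of which 32 were tested. In total RNA 9, 8 and 6 were called higher on dpi 2, 10 and 42, beside 10.0%, 9.20% and 6.66% of all genes. On dpi 2, 2 were called lower, beside 6.33%. Without pool 2 the dpi 2 counts were 4 higher and 2 lower of 31 tested, beside 8.69% and 4.89% of all genes. Serping1, the C1 complement inhibitor, held 57.3 ± 17.9 CPM on dpi 2 and 149 ± 1.5 CPM on dpi 10, against 5.06 ± 0.846 in naive total RNA, and its step from dpi 2 to dpi 10 was not called (1.38, edgeR q = 0.219). Serpinh1, the collagen chaperone, was 2.77 log2 units higher on dpi 2 (edgeR q = 1.67e-06). Serpinb1a, an inhibitor of neutrophil proteases inside cells, was OL enriched in naive tissue (log2 3.36, edgeR q = 7.97e-10) and fell in OL by 2.16 on dpi 2 (edgeR q = 1.16e-06). Among the 32, 3 were called OL enriched on dpi 2, Serpinb1a, Serpinb6a and Serpind1, beside 20.5% of all genes. Called OL depleted were 12, Serping1 and Serpinh1 among them, beside 27.2% of all genes. Without pool 2 the depleted numbered 8 of 31 tested, and neither Serping1 nor Serpinh1 was called (edgeR q = 0.0807 and 0.177). For that count no share of all genes in that fit is given here.

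Serine proteases, the class of enzymes that serpins inhibit, came from a list of 39 genes with 33 tested. In total RNA 7, 7 and 9 of them were called higher on dpi 2, 10 and 42, beside 10.0%, 9.20% and 6.66% of all genes. On dpi 2, 0 were called lower, beside 6.33% of all genes, and 1 was without pool 2, beside 4.89%. Examples from OL are the kallikreins Klk8 and Klk6. Klk8 (neuropsin) held 0.464 ± 0.414 CPM in naive OL and 319 ± 30.5 CPM on dpi 2, with total RNA at 1.92 ± 1.04 and 44.0 ± 2.22 CPM. Klk6, a protease that OLs make in the healthy cord, held 1320 ± 509 CPM in naive OL and 4390 ± 681 CPM on dpi 2 (log2 fold change 1.73, edgeR q = 1.1e-05). Plau, the urokinase, rose in total RNA by 3.08 log2 units on dpi 2 (edgeR q = 1.45e-06) and was OL depleted there (-2.95, edgeR q = 7.99e-07). Of the proteases that Serpina3n is known to inhibit, Gzmb, Elane and Ctsg (granzyme B, leukocyte elastase and cathepsin G) were not called in any change against naive in total RNA, with at most 1.03, 0.756 and 0.655 CPM in a library.

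Genes of the STAT3 and acute phase response, 30 on the list and all tested, included many that were higher after injury. In total RNA 18, 20 and 17 were called higher on dpi 2, 10 and 42, beside 10.0%, 9.20% and 6.66% of all genes. The median log2 fold change was 2.94 on dpi 2 against -0.10 over all genes. Without pool 2 the dpi 2 count was 16, beside 8.69% of all genes in that fit. In OL 14 were called higher on dpi 2, beside 10.2% of all genes (median 1.75, against 0.00 over all genes). Socs3, a feedback inhibitor that STAT3 induces, went from 0.482 ± 0.577 to 77.4 ± 11.5 CPM in OL on dpi 2, then to 14.4 ± 5.31 on dpi 10 and 17.9 ± 1.26 on dpi 42. Cebpd, a transcription factor of the acute phase, went from 7.60 ± 1.51 to 199 ± 22.5 CPM in OL on dpi 2 (log2 fold change 4.71, edgeR q = 2.09e-10). Stat3 itself was higher in OL on dpi 2 by 0.90 log2 units, which missed the size threshold (edgeR q = 6.97e-07). Osmr, the oncostatin M receptor, rose in OL by 3.80 on dpi 2 (edgeR q = 6.1e-05) and was OL depleted (-1.36, edgeR q = 0.0399), a call lost without pool 2 (-1.16, edgeR q = 0.171). Its ligand Osm was at 0 in naive OL and had 1.96 to 3.23 CPM in total RNA on dpi 2. Il6 was at 0 in every OL library.

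Genes that mark OLs in disease, a list of 10, were called higher in 9 of 10 cases in OL on dpi 2 and in 9 of 10 in total RNA. C4b, H2-D1 and B2m were among them, and 10.2% and 10.0% of all genes were called higher. On dpi 2, 7 of the 10 were called OL enriched and 1, B2m, OL depleted, beside 20.5% and 27.2% of all genes. The depletion call was lost without pool 2. B2m was also called OL depleted in naive tissue and on dpi 10 and dpi 42, and H2-D1 and H2-K1 were on dpi 10. C4b, the complement component, had another time course than Serpina3n. OL held 222 ± 75 CPM in naive tissue, 735 ± 194 on dpi 2, 1550 ± 234 on dpi 10 and 1960 ± 127 on dpi 42. Its step from dpi 2 to dpi 10 in OL was 1.08 (edgeR q = 0.00148), against -1.33 for Serpina3n. Il33, an alarmin of OLs, was the 1 gene of the list not called in OL on dpi 2 (0.41, edgeR q = 0.0594). Of 12 genes of reactive astrocytes, 11 were called higher in total RNA and 8 in OL on dpi 2, beside 10.0% and 10.2% of all genes. On dpi 2, 5 of the 12 were OL depleted, beside 27.2% of all genes, and Gfap was not called in OL (1.11, edgeR q = 0.211). Without pool 2, 11 were called higher in total RNA, beside 8.69% of all genes in that fit. In OL 9 were then called higher and 1 was depleted. For these OL counts no share of all genes in that fit is given here. On dpi 42, where the OL enrichment of Serpina3n was tested, all 12 were called higher in OL, Gfap among them (2.26, edgeR q = 0.0163). 1 of the 12 was OL depleted, and 8.54% of all genes were called higher and 27.0% depleted. The median OL enrichment was 0.06 over the list against -0.18 over all genes. Serpina3n is known as a member of both lists and was left out of their counts.

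The genes whose levels ran most like Serpina3n over the 24 libraries were Flnc, Cela1, Klk8, Plscr3, Rhoc, Cd63, Cebpd, Tmsb4x, Rhoj and Bcl3, with Pearson r of 0.963 to 0.924 on log2 CPM. The libraries fall into 8 groups, so r reflects the group means and is a description. The list holds another protease of the chymotrypsin family, Cela1 (r = 0.957), the neuropsin Klk8 (r = 0.956) and 2 acute phase regulators, Cebpd (r = 0.934) and Bcl3 (r = 0.924), a partner of NF-kB. The actin cross-linker Flnc (r = 0.963) held 13.7 CPM in naive OL libraries and 103, 53.0 and 54.9 CPM on dpi 2, 10 and 42. Among the members r with Serpina3n was 0.882 for Serpina3i, 0.739 for Serpina3c and 0.685 for Serpina3m, and 0.181, -0.01 and -0.07 for Serpina3k, Serpina3f and Serpina3g.

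**Figure D5:**
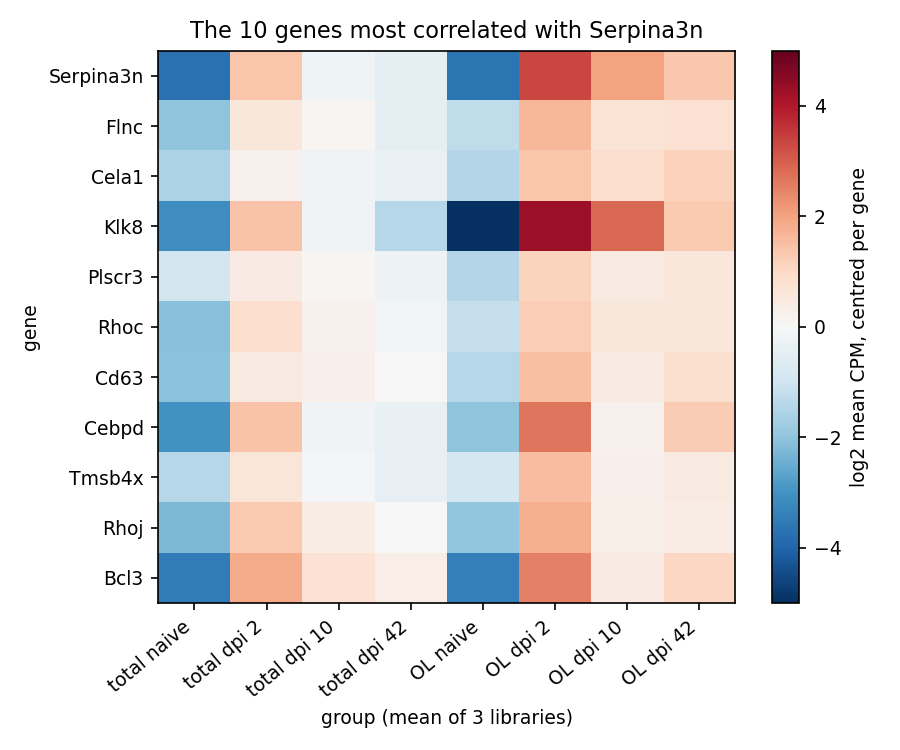
Log2 of the mean CPM of 3 libraries in each of 8 groups (columns), centred for each gene, for Serpina3n and the 10 genes most correlated with it (rows), blue for low and red for high. Most genes share the low naive columns and the high OL dpi 2 column, and Klk8 shows the widest range.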

How the data were processed

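Total spinal cord RNA and HA-captured OL RNA of 12 pools of 2 mice were sequenced. The authors aligned reads with STAR to GRCm38.p6 (mm10) and counted them on genes with HTSeq 0.10.0 after FastQC 0.10.1, and the deposited values are raw read counts per gene and library, without normalization. Strand and multi-read settings are not given in the sources used here. The groups follow the labels, those of dpi 42 the description, and pools follow the column names. The analysis used edgeR 4.0.16 in R 4.3.3: at least 10 counts over all libraries (17167 genes), TMM scaling, quasi-likelihood fit with 8 group means, and q by Benjamini-Hochberg over all tested genes. Changes were called past 1 and OL enrichment past 0.5 on the log2 scale, with q under 0.05. OL enrichment compares OL with total RNA, and differential OL enrichment is the interaction. The study pairs OL and total RNA of a pool for the latter; here the block by pool is an alternative. Folds against groups with 0 counts are bounds against 3 counts per library, and counting intervals (exact binomial, 95%) cover counting error only. The model was tested on simulated data. Results on some genes are not reported here. Names, lengths and transcripts came from GENCODE M21 (21939 of 21965 genes matched) and promoter windows from RefSeq; alignments used Biopython. Named genes were the members, the listed genes, genes within 500 kb and the 10 genes most correlated with Serpina3n (log2 CPM, prior count 2). The members and lists were chosen with earlier results of these data known. Same-pool OL and total libraries deviated together with r of 0.0408 to 0.137 in naive tissue, 0.0879 to 0.108 on dpi 2, 0.0245 to 0.063 on dpi 10 and -0.0109 to 0.02 on dpi 42. Replicates differed by more than sampling noise (median chi-square per gene 2.51 to 21.1, against 0.455 by chance). Alternatives were DESeq2 1.42.0 with its size factors, library sizes alone, other filters, only the groups compared, blocks, and libraries left out; the recount of the lists without dpi 2 pool 2 was added after seeing the data.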

Additional observations from a re-analysis of the deposited data

Results flagged for a closer look

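The change of Serpina3c after injury differed between OL and total RNA by the test of the difference itself, the edgeR interaction. The OL change exceeded the total RNA change by 7.58 log2 units on dpi 2 (q = 6.65e-04), 6.75 on dpi 10 (q = 0.00364) and 5.67 on dpi 42 (q = 0.0144). The dpi 42 call was lost with only the groups compared in the fit (q = 0.083) and without OL naive pool 2 (q = 0.0547). All 3 values share the naive libraries, where OL held 2 counts and total RNA 93. The 3 comparisons are thus not independent of each other.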

How the results depend on the processing

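For Serpina3n the total RNA changes against naive stayed called higher under every alternative run, at 5.00 to 5.32 on dpi 2, 3.46 to 3.69 on dpi 10 and 3.14 to 3.42 on dpi 42, and so did OL enrichment on dpi 42 (1.30 to 1.93). Its OL enrichment in naive tissue reversed to -0.438 with library sizes alone and ran from -0.132 to 0.411 with 1 library left out. The replicate block by tissue pool gave 0.0192 in naive tissue and 1.82 on dpi 42, and the block by replicate number gave 5.11 and 3.51 in total RNA on dpi 2 and 10. With the block by replicate number the members called higher in total RNA on dpi 2 numbered 4, beside 10.1% of all genes, and with the block by pool the dpi 2 and dpi 10 OL depletion of Serpina3g (q = 0.115 and 0.079) and the dpi 2 enrichment of Serpina3m (q = 0.0801) were lost. With only the groups compared in the fit, 6 members were called higher in total RNA on dpi 2 (3 with all groups), beside 14.3% of all genes (10.0%). Serpina3k, whose rise there is no test, was among the 6. In OL on dpi 42 that fit called 1 member (3), beside 4.91% (8.54%). With 1 library left out, the members called OL enriched on dpi 42 numbered 1 to 3 and those depleted in naive tissue 1 to 2. The uncalled total RNA change of Serpina3c on dpi 10 (-0.137) became 0.0441 with library sizes alone, 0.0112 with only the groups compared, and -0.34 to 0.171 with 1 library left out. The uncalled OL enrichment on dpi 42 ran from -0.243 to 1.27 for Serpina3c and from -0.527 to 1.54 for Serpina3i, which was -0.0076 with the block by pool. The total RNA change of Serpina3g on dpi 42 ran from -0.19 to 0.497. The cause was not tested.

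Counts over all genes moved by more than 1.5 times with only the groups compared: 2420 against 1580 higher in total RNA on dpi 10, 1753 against 1144 on dpi 42, 730 against 1170 and 744 against 1466 in OL on dpi 10 and 42, and 441 against 166 lower in total RNA from dpi 2 to dpi 10. With library sizes alone OL enriched genes numbered 1390, 1536 and 1687 on dpi 2, 10 and 42 against 3525, 3641 and 3621, and OL depleted genes 7437 and 7465 on dpi 2 and 10 against 4670 and 4680. Genes called higher in differential OL enrichment numbered 266 to 553, 114 to 288 and 103 to 498 on dpi 2, 10 and 42 with 1 library left out, against 575, 254 and 267. Counts in single digits, as in naive OL, limit Serpina3c, Serpina3m and Serpina3g.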
